A study of Mus musculus with 2 samples.

Results

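Cxcl13 and 7 other genes of the homeostatic CXC chemokine axes were followed across cell types in 2 droplet single-cell RNA libraries of mouse tumour leukocytes. The 8 genes were Cxcl13 and its receptor gene Cxcr5, Cxcl12 and its receptor gene Cxcr4, Cxcl16 and its receptor gene Cxcr6, and the chemokine genes Cxcl14 and Pf4. They were taken by symbol from 32285 gene models, and all 8 were present. They were selected on their measured CPM and detection in the cell gates used below, so those levels are given as descriptions. One library came from mice given cepharanthine (CEP), a plant alkaloid, and the other from mice given vehicle (Vehicle), whose title label reads "Vehide". Both were made from tumours digested with collagenase D and DNase I and selected with antibody to CD45, the protein that marks leukocytes. The sources used here do not state the tumour model, the strain or age of the mice, the dose or its timing. The design states 5 animals per group, but cells cannot be assigned to animals from the labels, so each group is 1 library and no test between groups was possible. Every interval below is a 95% interval for counting error only, and it leaves out the spread between animals, cells and library preparations.

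Chemokines are small secreted proteins that steer migrating cells through G protein-coupled receptors. CXCL13 is the attractant of B cell follicles and acts on CXCR5, which B cells and follicular helper T cells carry. CXCL12, made by stromal cells, retains CXCR4-bearing leukocytes in bone marrow and draws them into tissues. CXCL16 is made as a membrane-bound protein that proteases can shed, and its receptor CXCR6 marks tissue-resident and effector T cells. CXCL14 is a chemokine of epithelia and stroma, and Pf4 encodes platelet factor 4 (CXCL4), which platelets store in granules and which tissue macrophages also express.

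After filters, 8842 CEP and 9154 Vehicle cells were kept, with median depths of 6213.5 and 5767.5 UMIs (unique molecular identifiers, each standing for 1 captured RNA molecule). The full libraries held 88721774 and 81208647 UMIs, and 136 barcode sequences occurred in both. Cells were gated on raw UMIs of other genes. The macrophage gate needed at least 10 UMIs of C1qa, C1qb and C1qc and held 4162 CEP and 4564 Vehicle cells. The neutrophil gate (Csf3r and Cxcr2, at least 1, with C1q under 3) held 1652 and 2103 cells, and the T cell gate (Cd3d, Cd3e and Cd3g, at least 2, with C1q under 3) held 170 and 258. The dendritic gate (Flt3, at least 1) held 91 and 94 cells and the epithelial gate (Krt8 and Krt18, at least 10) held 780 and 111, both with C1q under 10. Levels are UMIs per 1000000 UMIs of the gate (CPM). The 7 macrophage markers summed to 16788 and 16879 CPM in the macrophage gate and to 1120 (CEP) and 968 (Vehicle) in the neutrophil gate. The gates were not pure. The 6 neutrophil markers summed to 27794 and 41592 CPM in the T cell gate, against 100541 and 118579 in the neutrophil gate. The 6 fibroblast markers summed to 1171 CPM in the CEP neutrophil gate and 9.13 in the Vehicle one, with 3 of the 6 at 0 in Vehicle. The 6 epithelial markers summed to 317 and 42.4 CPM there.

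**Figure D1:**
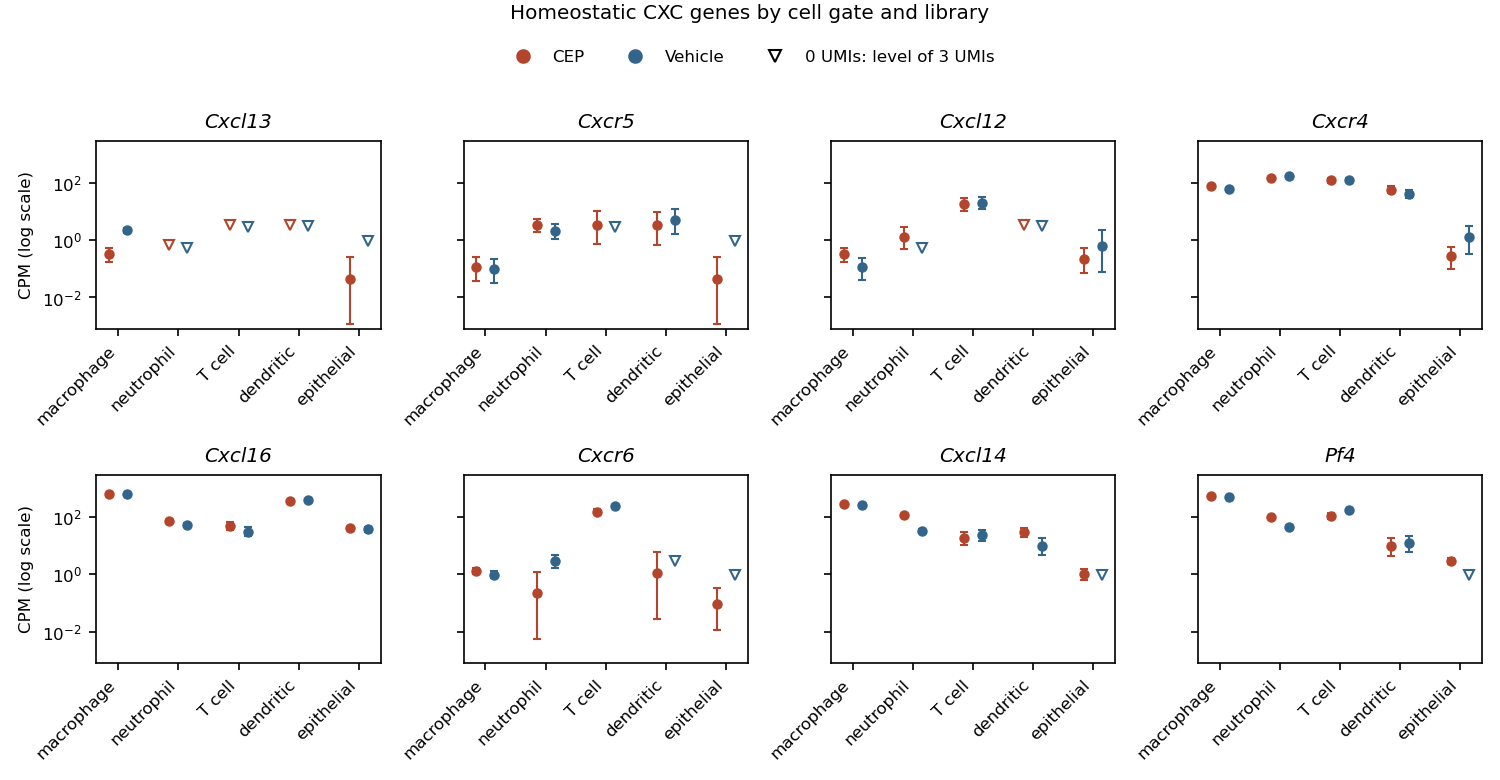
Levels of the 8 genes (CPM, log axis) in 5 gates, with 1 point per library and bars for the 95% Poisson interval; an open triangle marks 0 UMIs and stands at the level of 3 UMIs. Cxcl16 and Pf4 were highest in macrophages and Cxcr6 in T cells in both libraries, and Cxcl13 was at 0 UMIs in neutrophils, T cells and dendritic cells.

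Counts of genes past 1.5-fold between the libraries give the background for each gate, over genes with at least 50 UMIs in both libraries together. In macrophages 6 of the 8 members were measured, with 0 higher in CEP and 1, Cxcl13, lower, where 5.59% of 12284 genes were past the fold, 4.44% higher and 1.15% lower. The median log2 ratio of the 6 was 0.06, against 0.02 for all genes. In neutrophils 4 were measured, with Cxcl14 and Pf4 higher and 0 lower, where 20.2% of 8011 genes were past the fold, 18.2% higher and 2.06% lower. In T cells 4 were measured, with Cxcl16 higher and Cxcr6 and Pf4 lower, where 12.1% of 4810 genes were past the fold, 5.9% higher and 6.17% lower. The log2 ratio of Cxcl16 there was 0.66, but it was not past the fold under 4 settings, at -0.18 in thinned cells, 0.34 with per-cell CPM averaged, 0.53 with the gate minimum doubled and 0.54 without cells in more than 1 gate. In dendritic cells 2 were measured, Cxcr4 and Cxcl16, and 0 were past the fold in either direction, where 9.1% of 4594 genes were, 4.75% higher and 4.35% lower. In epithelial cells 2 were measured, with Pf4 higher and 0 lower, where 7.84% of 10733 genes were past the fold, 3.9% higher and 3.94% lower. The number of neutrophil genes past the fold, 1621, was 419 without cells of 10 or more collagen or keratin UMIs. Nothing is read from these member counts, since the levels entered the choice of genes.

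Cxcl13 RNA was found in very few cells of either library. Over all deposited barcodes, 5 CEP barcodes held 19 UMIs and 6 Vehicle barcodes held 181. The gene (ENSMUSG00000023078) lies on chromosome 5 from 95956951 to 95961068 on the plus strand of mm10. The 250 bases before its RefSeq start (GRCm38.p6, chr5:95956689-95956938, plus strand) are shown because this is the gene whose library ratio is the largest among the members in macrophages. Capitals mark the letters TATAAA, the TATA box core, which begin 46 bases before the start. They were searched on both strands and occur in 12.4% of 32851 promoter windows of the same length.
Cxcl13: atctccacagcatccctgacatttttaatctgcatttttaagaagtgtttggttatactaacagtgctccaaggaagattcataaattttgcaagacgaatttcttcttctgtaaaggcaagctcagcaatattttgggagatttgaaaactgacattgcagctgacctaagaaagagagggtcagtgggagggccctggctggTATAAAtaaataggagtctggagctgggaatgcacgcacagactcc
The match is a description of letters, and no measurement here bears on what binds them.

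In the macrophage gate Cxcl13 had 14 UMIs in CEP, or 0.322 CPM (0.176 to 0.540), and 115 in Vehicle, or 2.19 CPM (1.81 to 2.63). The log2 ratio of CEP over Vehicle was -2.76 (-3.68 to -1.96). Both sums came from 2 cells in each library. A single Vehicle cell held 104 of the 115 UMIs (90.4%) and a single CEP cell 12 of the 14 (85.7%). Without the highest cell of each library, 2 and 11 UMIs were left, each in 1 cell, at 0.0460 and 0.209 CPM, and the log2 ratio was -2.18 (-5.40 to 0.01), an interval that reaches 0. The share of macrophages with a Cxcl13 UMI was 0.0481% in CEP (exact binomial interval 0.00582 to 0.173%) and 0.0438% (0.00531 to 0.158%) in Vehicle, and these intervals overlap.

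Counts of Folr2, Arg1 and Pf4 varied among the few positive macrophages, and whether these cells differed in state was not tested. The Vehicle cell with 104 Cxcl13 UMIs had 3713 UMIs in all, so that Cxcl13 made up 2.80% of its RNA, and it had 70 C1q, 16 Pf4, 6 Cxcl16 and 5 Cxcr4 UMIs but none of Arg1 or Folr2. The CEP cell with 12 UMIs had 4 Folr2, 1 Arg1 and 11 Pf4 UMIs. The other CEP cell, with 2 Cxcl13 UMIs among 9522 in all, had 12 Pf4 UMIs and none of Folr2 or Arg1. The Vehicle cell with 11 UMIs had 7 Folr2, 20 Arg1 and 89 Pf4 UMIs. All 4 kept positive macrophages had UMIs of Pf4 and Cxcl16. Of Cxcl13-negative macrophages, 58.6% in CEP and 59.6% in Vehicle had a Pf4 UMI, and 94.9% in both had a Cxcl16 UMI. A further Vehicle barcode with 63 Cxcl13 UMIs was removed for its doublet score, and it carried 119 C1q UMIs together with 1104 UMIs of the neutrophil genes S100a8 and S100a9. With cells of high doublet score kept, the macrophage log2 ratio was -3.43.

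**Figure D2:**
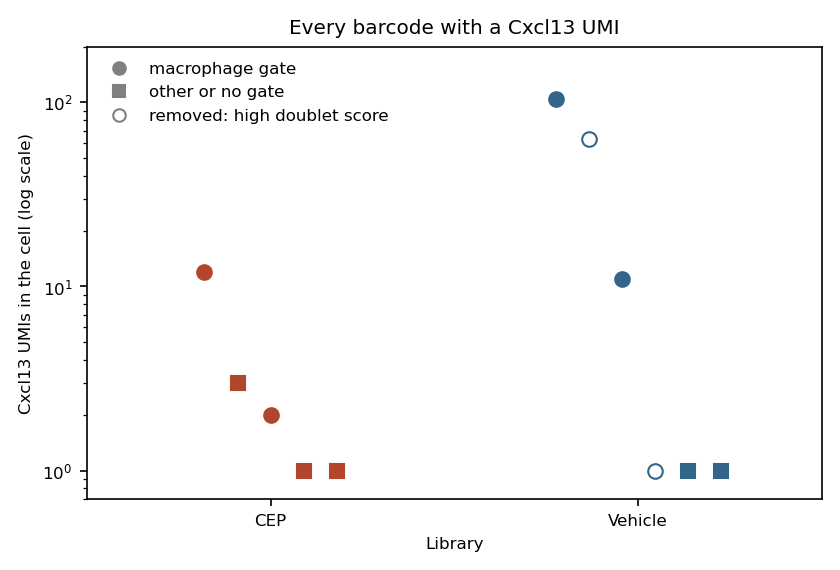
Each point is 1 barcode with a Cxcl13 UMI, by library, with its Cxcl13 UMIs on a log axis; circles are macrophage-gate cells, squares are cells of another or no gate, and open circles were removed for a high doublet score. The Vehicle cell with 104 UMIs stands above the others, the next kept cells have 12 and 11, and 63 belong to a removed barcode.

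No Cxcl13 UMI fell in the neutrophil, T cell or dendritic gates. A count of 0 allows up to 0.666 CPM in CEP and 0.537 in Vehicle neutrophils, 3.51 and 2.92 CPM in T cells, and 3.30 and 3.03 CPM in dendritic cells, at 3 UMIs. Outside the macrophage gate the remaining kept cells held between 1 and 3 UMIs each. Of the 4 among them that fell in no gate, 3 had UMIs of the T cell receptor complex genes Cd3d, Cd3e and Cd3g (5 and 3 in CEP cells, 39 in a Vehicle cell) beside 4 to 6 C1q UMIs, over the C1q limit of the T cell gate. One CEP epithelial-gate cell of 58541 UMIs held 1 Cxcl13 UMI. By the rule for likeness, 5 genes were ranked by their level in Cxcl13-positive macrophages thinned to 3000 UMIs. With 2 positive cells per library those genes (Iffo2, Arhgap10, Gm17056, Enc1 and Smagp) stood at 167 CPM in the positive cells of either library, the value of 1 UMI, and the ranking carries no information. Across the 5 gates in both libraries (10 points), the profiles nearest to that of Cxcl13 were those of Prpf38a, Gdf3, C6, Lrpap1 and B3gnt7, with Pearson's r from 0.82 to 0.92. The points share libraries, and 7 of the 10 have no Cxcl13 UMI.

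Cxcr5, the CXCL13 receptor gene, was sparse too and sat mostly in other cells. The gene (ENSMUSG00000047880) lies on chromosome 9 from 44511787 to 44561877 on the minus strand. It had 35 UMIs in 34 kept CEP cells and 37 in 30 kept Vehicle cells. The highest levels were in the small B cell gate (Cd79a, Cd79b and Ms4a1, at least 3), at 92.3 CPM (25.2 to 236) from 4 UMIs in 4 of 7 CEP cells and 118 CPM (50.9 to 232) from 8 UMIs in 4 of 17 Vehicle cells. The dendritic gate held 3 and 5 UMIs, at 3.30 and 5.05 CPM, all of them in cells with at least 2 UMIs of Ccr7 and Fscn1, the markers of mature migratory dendritic cells. In CEP, 2 of the 3 UMIs lay in 1 cell of 7046 UMIs. That cell also held 165 UMIs of S100a8 and S100a9 and was counted in the neutrophil gate too. T cells held 3 UMIs in CEP and 0 in Vehicle, and neutrophils 15 and 12 (3.33 and 2.15 CPM). Macrophages held 5 and 5 UMIs, or 0.115 and 0.0951 CPM. No cell in the macrophage gate held both a Cxcl13 and a Cxcr5 UMI. With 2 Cxcl13-positive and 5 Cxcr5-positive macrophages in each library, this absence carries no information. At these counts no difference between libraries was detectable in any gate, and the log2 ratio over all kept cells was -0.23 (-0.94 to 0.47).

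Genes that organise lymphoid tissue around this axis were followed next. In macrophages the list held 9 genes, of which 6 had at least 50 UMIs over both libraries. Of these, 2 were at least 1.5-fold higher in CEP and 0 were lower, where 4.44% of 12284 genes were higher and 1.15% lower. The 6 had a median log2 ratio of 0.08, beside 0.02 over all genes. Tnfsf11, which encodes RANKL, was at 1.38 and 0.304 CPM (60 and 16 UMIs, log2 2.18, 1.37 to 3.08). The other, named after its value was seen, was the homing receptor gene Ccr7 at 12.6 and 7.82 CPM (0.68, 0.50 to 0.87). Tnfsf13b, which encodes the B cell survival factor BAFF, was the lowest at 23.7 and 33.1 CPM (-0.48, -0.60 to -0.37). Tnfsf11 was at 65.5 and 48.6 CPM in T cells, and Ccr7 at 151 and 144 there and at 1115 and 880 in dendritic cells. The 6 T cell markers summed to 31.9 and 21.1 CPM in the macrophage gate. The part of RNA from other cells in the macrophage ratios of Tnfsf11 and Ccr7 was not tested. In T cells 0 of 4 measured members were past 1.5-fold, beside 12.1% of all 4810 genes. Ltb, which encodes lymphotoxin beta, was at 752 and 1004 CPM there (-0.42, -0.56 to -0.27). Of the 6 follicular helper T genes, 3 were measured in T cells and 0 were past 1.5-fold, beside the same 12.1%. Pdcd1, the gene of PD-1, was the highest at 0.25 (-0.01 to 0.51) and Icos the lowest at -0.35 (-0.58 to -0.13).

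Cxcl12 was a gene of collagen-rich stromal cells here. The gene (ENSMUSG00000061353) lies on chromosome 6 from 117168535 to 117181367 on the plus strand. Kept cells held 136 Cxcl12 UMIs in CEP and 54 in Vehicle, and 85.3% and 83.3% of them lay in the 45 CEP and 19 Vehicle cells that had 10 or more UMIs of collagen genes. In the fibroblast gate (Col1a1, Col1a2 and Col3a1, at least 10, with C1q under 3) the level was 95.9 CPM (73.5 to 123) in 31 CEP cells and 96.4 (60.4 to 146) in 11 Vehicle cells, a log2 ratio of -0.01 (-0.73 to 0.76). Endothelial-gate cells had 17 and 2 UMIs. The T cell gate showed 18.7 and 20.4 CPM, but its 16 and 21 UMIs came from 1 cell in each library, with 273 and 1257 collagen UMIs. Macrophages held 14 and 6 UMIs (0.322 and 0.114 CPM), of which 12 and 1 were in cells with 10 or more collagen UMIs. Neutrophils held 6 and 0, with all 6 in such cells, and dendritic cells held 0 in both. Over all kept cells Cxcl12 was at 1.73 and 0.765 CPM (log2 1.18, 0.71 to 1.66), beside the 31 and 11 fibroblast-gate cells. CD45 selection should remove stromal cells, so neither number measures the stroma of the tumours.

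Cxcr4, the CXCL12 receptor gene, was broadly present in leukocytes and, in macrophages, higher in CEP. The gene (ENSMUSG00000045382) lies on chromosome 1 from 128588199 to 128592293 on the minus strand. Its promoter window (GRCm38.p6, chr1:128592300-128592549, minus strand) is shown because Cxcr4 was the abundant member with the clearest difference between libraries in macrophages. Capitals mark TATAAA again, here with 2 overlapping matches, one on each strand, of which the one on the strand shown begins 30 bases before the start.
Cxcr4: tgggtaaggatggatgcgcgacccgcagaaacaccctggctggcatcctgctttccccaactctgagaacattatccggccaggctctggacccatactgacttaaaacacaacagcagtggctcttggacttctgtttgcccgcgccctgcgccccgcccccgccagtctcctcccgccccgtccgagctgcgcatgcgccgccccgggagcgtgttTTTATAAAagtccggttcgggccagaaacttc
No measurement here bears on the use of those letters.

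Macrophages had 80.3 CPM of Cxcr4 (77.6 to 83.0, from 3490 UMIs) in CEP and 62.5 (60.4 to 64.7, from 3287 UMIs) in Vehicle, a log2 ratio of 0.36 (0.29 to 0.43). It lay between 0.30 and 0.39 under each of 9 alternative treatments of the cells. Among macrophage genes 90% had log2 ratios between -0.31 and 0.54, so the ratio lies within the spread of ordinary genes and below 1.5-fold. Of 10 genes that tissue digestion induces, 0 were past 1.5-fold, beside 5.59% of all 12284 genes. The 10 had a median log2 ratio of 0.22, with Fosb the highest at 0.42 and Fos the lowest at 0.04. Their part in the Cxcr4 difference was not tested. At least 1 Cxcr4 UMI was present in 43.1% of the CEP macrophages (median depth 9737.5 UMIs) and in 39.8% of the Vehicle ones (10880). Of epithelial cells, 0.769% and 3.60% had one, at median depths of 26785.5 and 26694. In cells thinned to 1000 UMIs, with 31 CEP and 27 Vehicle macrophages left out for depth, the shares were 8.98% and 7.58%, against 0% in both epithelial gates.

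Cxcr4 differed between macrophage sub-gates. It was at 160.4 and 136 CPM in cells with a Gpnmb UMI (191 CEP and 48 Vehicle cells) against 76.9 and 61.7 CPM in the others. Cells with Cd163, a scavenger receptor gene of resident macrophages, had 142 and 106 CPM against 77.9 and 60.2, and those with Folr2 had 116 and 89.8 CPM against 69.0 and 54.6. Levels were lower in cells rich in MHC class II RNA (at least 20 UMIs of H2-Eb1, H2-Ab1 and H2-Aa), at 71.3 and 58.9 CPM against 108 and 82.1, and in cycling cells, at 57.5 and 48.6 against 89.5 and 68.1. The CEP level was the higher one inside and outside each of the 7 sub-gates Gpnmb, Arg1, Folr2, Cd163, Cxcl9, cycling and MHC class II high, with log2 ratios inside from 0.17 to 0.42. The sub-gates overlap and split the same macrophages, so these are not separate observations of the difference. They are also cut-offs on raw UMIs, so a cell's depth can affect its side, and the part of depth was not tested. For Gpnmb (0.23, -0.13 to 0.61) and Cxcl9 (0.17, -0.01 to 0.35) the interval inside held 0. In the eighth, Ly6c2 cells, the levels were 111 and 61.2 CPM (0.86, 0.47 to 1.27) against 79.0 and 62.5 outside, and in Vehicle the interval inside (48.2 to 76.6) held the level outside.

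Neutrophils had the highest Cxcr4 level of the 5 gates in each library, at 143 CPM (132 to 154) for CEP and 169.5 (159 to 181) for Vehicle, or a log2 ratio of -0.25 (-0.39 to -0.10). The direction was opposite to that in macrophages. Without cells that fell in more than 1 gate it was -0.11, and with the gate minimum doubled -0.13. Cells with at least 2 UMIs of the granule genes Ltf, Camp and Ngp, which mark young neutrophils, had 48.4 and 32.9 CPM, against 160.4 and 205 in the others. The 5 genes most enriched in thinned Cxcr4-positive neutrophils (226 CEP and 326 Vehicle cells) were Rgs2, a regulator of G protein signalling, Mtdh, Hnrnpul2, Crk and Cdk2ap2. Rgs2 stood at log2 1.35 and 0.98 over the Cxcr4-negative neutrophils, and the other 4 had lower values of 0.84 to 0.88 in the library where each was weaker. Of the 5 genes of the neutrophil ageing and retention list, 0 were past 1.5-fold, beside 20.2% of all 8011 genes in this gate. The list holds the integrin genes Itga4 (33.1 and 47.6 CPM, -0.53, -0.82 to -0.23) and Itgam (364 and 476 CPM, -0.39). Icam1 was at -0.03 (-0.25 to 0.19) and Cxcr2 at -0.15, and Cxcr2 was part of the gate. In the same gate the 6 neutrophil markers summed to 100541 CPM in CEP and 118579 in Vehicle, the fibroblast markers to 1171 and 9.13 and the epithelial markers to 317 and 42.4. Without cells of 10 or more collagen UMIs, the Cxcr4 ratio was -0.20. The part of these marker differences in the ratios was not tested further.

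T cells came next, with 123 (100.4 to 149) and 128 (107 to 152) CPM of Cxcr4, and in CEP their interval overlapped that of neutrophils. Their log2 ratio was -0.06 (-0.45 to 0.32). Dendritic cells had 58.2 and 40.4 CPM (0.53, -0.09 to 1.16), and epithelial cells 0.273 and 1.25 CPM from 6 and 4 UMIs. Cells with Cd8a or Cd8b1 had 41.3 and 82.6 CPM from 13 and 28 UMIs, below the 170.2 and 151 CPM of the remaining T cells. Trdc cells, which carry the gamma-delta receptor gene, had 314 and 257 CPM from 8 and 27 UMIs. Of the 12 genes of CXCL12 and CXCR4 signalling, 0 were past 1.5-fold in macrophages, beside 5.59% of all 12284 genes, with a median of 0.00. Ackr3, which encodes the scavenger receptor of CXCL12, was the highest at 11.3 and 9.07 CPM (0.31, 0.13 to 0.50). Cd74, the invariant chain gene whose product also binds MIF, was the lowest at -0.39. In neutrophils 1 of 11 measured genes was past the fold, Ackr3 at 10.9 and 4.83 CPM from 49 and 27 UMIs (1.17, 0.46 to 1.90), where 18.2% of all neutrophil genes were at least 1.5-fold higher. Ackr3 was at 71.0 and 35.4 CPM in epithelial cells, and the part of the epithelial and fibroblast RNA of the neutrophil gate in its ratio was not tested.

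Cxcl16 marked nearly every macrophage, at nearly the same level in both libraries. The gene (ENSMUSG00000018920, chromosome 11, 70453983 to 70459984, minus strand) had 635 CPM (628 to 643) in CEP macrophages and 651 (644 to 658) in those of Vehicle, for a log2 ratio of -0.04 (-0.06 to -0.01). Averaging per-cell CPM in place of summing UMIs turned the sign, to 0.01. A Cxcl16 UMI was found in 94.9% of macrophages in both libraries and in 7.02% and 6.18% of neutrophils, whose median depth was 1751 and 1840 UMIs. Thinned to 1000 UMIs per cell the shares were 46.2% and 46.4% in macrophages and 3.25% and 2.65% in neutrophils, where 237 and 213 cells were too shallow. The macrophage gate held 88.0% of all kept Cxcl16 UMIs in CEP and 92.3% in Vehicle.

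Cxcl16 varied less across macrophage sub-gates than Pf4. In the Gpnmb, Arg1, Folr2, Cxcl9, cycling and MHC class II high sub-gates the log2 ratio inside over outside lay between -0.19 and 0.30. The Cd163 sub-gate was lower, at 536 and 492 CPM against 639 and 659.7, and so was the Ly6c2 sub-gate, at 485 and 572 CPM against 641 and 653. Dendritic cells came second, at 367 (329 to 408) and 385 (347 to 426) CPM, and they were uneven. Mature cells with Ccr7 and Fscn1 had 620.2 and 671 CPM, and the other dendritic cells 197 and 251, in both libraries a difference wider than the counting intervals. Neutrophils followed, at 71.3 and 54.1 CPM. T cells (49.1 and 31.1) and epithelial cells (42.1 and 37.6) had overlapping intervals and changed places between the libraries, and in CEP the interval of T cells also overlapped that of neutrophils. Genes most enriched in thinned Cxcl16-positive macrophages were Osbpl1a, Snapc2, Depdc7, Klrb1b and Nlrx1, each at log2 0.58 to 0.89 over Cxcl16-negative ones. Of the 4 genes of CXCL16 shedding, 3 were measured in macrophages and 0 were past the fold, beside 5.59% of all 12284 genes. The 3 were the protease genes Adam10 (74.3 and 75.7 CPM, -0.03) and Adam17 (71.5 and 79.1 CPM, -0.14) and the ADAM17 cofactor gene Rhbdf2 (38.1 and 38.9 CPM, -0.03).

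Cxcr6, the CXCL16 receptor gene, was highest in the T cell gate, where its summed level was lower in CEP. That gate held 54.3% of kept Cxcr6 UMIs in CEP and 57.5% in Vehicle. Macrophages held 23.5% and 11.8%, and cells of no gate 19.4% and 28.3%. The gene (ENSMUSG00000048521) lies on chromosome 9 from 123806475 to 123811760 on the plus strand. The T cell gate had 134 UMIs, or 157 CPM (131 to 186), in CEP and 248 UMIs, or 241 CPM (212 to 273), in Vehicle, and the log2 ratio was -0.62 (-0.94 to -0.31). It was -0.37 both in thinned cells and with per-cell CPM averaged, and -0.85 with the gate minimum doubled. A Cxcr6 UMI was present in 25.9% of CEP and 31.0% of Vehicle T cells at median depths of 2844.5 and 2638 UMIs, with overlapping intervals of 19.5 to 33.1% and 25.4 to 37.0%. Thinned shares were 12.7% and 16.8%, with 12 and 14 cells left out, against 0.0707% and 0.106% in neutrophils. Macrophages had 1.33 and 0.970 CPM, with a UMI in 0.649% and 0.613% of cells. NK-gate cells had 65.8 and 73.3 CPM from 5 and 9 UMIs.

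Subsets of T cells differed several-fold in Cxcr6. Trdc cells had the highest level, at 666 CPM (17 UMIs in 7 CEP cells) and 839 CPM (88 UMIs in 26 Vehicle cells). Without them the levels were 141 and 173 CPM (log2 -0.30, -0.65 to 0.06), and within them the log2 ratio was -0.33 (-1.18 to 0.43). Neither interval excluded 0, and the 2 libraries held different numbers of Trdc cells. Cells with Cd8a or Cd8b1 had 257 and 200.5 CPM (81 and 68 UMIs, 0.36, -0.12 to 0.85). T cells outside that sub-gate had 98.0 and 261 CPM (53 and 180 UMIs, -1.41, -1.88 to -0.96). Foxp3 cells had 1 UMI in each library, from 28 and 42 cells. Among thinned T cells, 20 in CEP and 41 in Vehicle had a Cxcr6 UMI. The genes most enriched in them were Il17a (log2 3.03 and 2.93), which encodes interleukin-17A, Cd163l1 (2.12 and 1.99), Ramp1, Bcl2a1d and Cxcr4 (1.45 and 1.24). Without thinning, a Cxcr6 UMI was found in 28.4% of Cxcr4-positive and 24.3% of Cxcr4-negative T cells in CEP. The Vehicle shares were 32.5% and 30.4%.

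Of the resident memory T genes, 4 were measured in T cells, and 0 were higher and 2 lower past 1.5-fold. Of all 4810 genes measured in that gate, 5.9% were higher and 6.17% lower. Cd69, an early activation and retention gene, was at 203 and 353 CPM (-0.80, -1.06 to -0.53). Prdm1 was at 26.9 and 40.8 CPM from 23 and 42 UMIs (-0.60, -1.40 to 0.16). Itgae was level at 80.7 CPM in both, and Runx3 was the highest at 153 and 115 CPM (0.42, 0.05 to 0.79). The digestion-induced genes had a T cell median of -0.27, with Jun the lowest at -1.01. The neutrophil marker list in the T cell gate was 27794 CPM in CEP and 41592 in Vehicle, and 21 and 28 T cell-gate cells also fell in another gate. The part of these in the T cell ratios was not tested. Without cells in more than 1 gate, the Cxcr6 ratio was -0.49.

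Cxcl14 was abundant in macrophages, where the CEP level was 280.1 CPM (275 to 285) and the Vehicle level 272 (268 to 277), for a log2 ratio of 0.04 (0.01 to 0.08) that was -0.05 in thinned cells. The gene (ENSMUSG00000021508, chromosome 13, 56288643 to 56296551, minus strand) was detected in 66.3% and 67.0% of macrophages, and thinned in 20.1% and 20.7%, against 1.63% and 1.69% of neutrophils. Fibroblast-gate cells had higher levels, at 1749.9 CPM in CEP and 1889.5 in Vehicle (-0.11, -0.27 to 0.05). Among macrophages it was lower in Cd163 cells, at 121 and 152 CPM against 286 and 278, and in Ly6c2 cells, at 133 and 175 CPM. It was higher in cells with Arg1, which encodes arginase 1, at 300.0 CPM in both against 218 and 195. Cxcl14 thus had the opposite order to Cxcr4 and Pf4 over the Cd163 and Folr2 sub-gates, and the same order as both over Arg1.

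In the neutrophil gate Cxcl14 stood at 121 CPM in CEP and 32.8 in Vehicle (545 and 183 UMIs, log2 1.88, 1.64 to 2.13), and this difference rested on few cells. A single CEP cell, with 1466 collagen UMIs, held 323 of the 545. Without the highest cell of each library the levels were 49.6 and 26.9 CPM (0.88, 0.58 to 1.19). Without the 6 CEP and 1 Vehicle neutrophil-gate cells of 10 or more collagen UMIs they were 40.0 and 32.8 CPM (0.29). The shares of neutrophils with a UMI were 2.91% and 2.76%.

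Pf4 UMIs lay mostly in the macrophage gate, where platelet genes were almost absent. Macrophages had 542 CPM of Pf4 (536 to 549, from 23581 UMIs) in CEP and 514 (508 to 520.0, from 27017 UMIs) in Vehicle. The log2 ratio was 0.08 (0.05 to 0.10), and it was 0.01 in thinned cells and with per-cell CPM averaged. The macrophage gate held 85.9% and 85.3% of kept Pf4 UMIs. The 6 platelet markers, Ppbp, Itga2b, Gp9, Gp1bb, Tubb1 and Clec1b, summed to 5.71 and 6.68 CPM in macrophages, with Gp9, Gp1bb and Tubb1 at 0. A UMI of any of the 6 was present in 4.34% and 4.41% of Pf4-positive macrophages and in 1.74% and 2.50% of the others. The gene (ENSMUSG00000029373) lies on chromosome 5 from 90772435 to 90773383 on the plus strand. Its promoter window (GRCm38.p6, chr5:90772185-90772434, plus strand) is shown because Pf4 differed most between macrophage sub-gates. Capitals mark the only match to GAGGAA, the core of the motif of the myeloid factor PU.1. It lies on the opposite strand, 8 bases before the start, and 23.3% of the windows hold such a match on either strand.
Pf4: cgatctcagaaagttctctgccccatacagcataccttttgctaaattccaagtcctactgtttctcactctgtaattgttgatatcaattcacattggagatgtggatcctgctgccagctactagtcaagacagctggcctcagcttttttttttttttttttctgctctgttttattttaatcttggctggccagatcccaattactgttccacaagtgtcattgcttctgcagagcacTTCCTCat
A motif present in so many windows sets the gene apart in no way.

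Pf4 was uneven from macrophage to macrophage, unlike Cxcl16. In CEP 58.6% of macrophages had a Pf4 UMI and in Vehicle 59.6%, against 5.93% and 5.37% of neutrophils, and 24.3% and 23.4% against 3.46% and 2.96% in thinned cells. Of macrophages, 23.9% and 24.2% had 5 or more Pf4 UMIs, and those cells held 88.1% and 88.4% of the gate's Pf4 UMIs. The highest cell had 342 UMIs in CEP and 384 in Vehicle. For Cxcl16, 61.7% and 66.8% of macrophages had 5 or more UMIs, and the highest cell had 35 and 37.

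Pf4 levels differed between macrophage sub-gates, which are cut-offs on raw UMIs. The part of cell depth in these differences was not tested. Cells with Gpnmb had 1503 and 1441 CPM of Pf4 against 502 and 503 in the others, so that the levels outside the sub-gate nearly coincided. Cells with Cd163 had 1185 and 1215 CPM against 518 and 477, those with Folr2 822 and 923 against 454 and 395, and those with Arg1 624 and 611 against 286 and 244. Cells rich in MHC class II RNA had 327 and 299 CPM against 1199 and 1678 in the others, the widest contrast of any sub-gate. Cells with Cxcl9, an interferon-induced chemokine gene, had 290.2 and 270.1 CPM against 590.4 and 584. The order of levels inside over outside was alike in both libraries except for Ly6c2 cells, which had 233 CPM in CEP (139 cells) and 602 in Vehicle (89 cells) against 555 and 512. In thinned macrophages the genes most enriched in Pf4-positive cells were Mmp9 (log2 3.09 and 3.30), a gelatinase gene that is also among the neutrophil markers, Cd163 (2.11 and 2.25), F13a1 (2.08 and 2.20), which encodes the clotting factor XIII A chain, Pmp22 (1.89 and 1.78) and Cxcl3 (1.67 and 2.01).

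**Figure D3:**
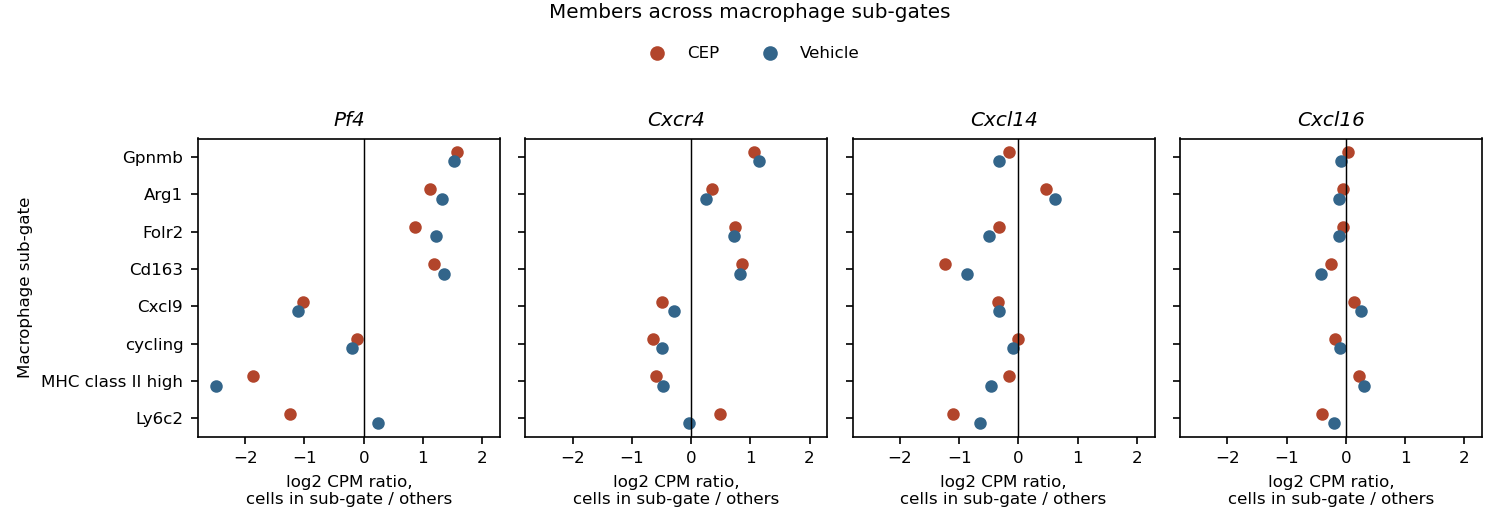
Log2 ratio of CPM in macrophages inside a sub-gate over those outside it, for Pf4, Cxcr4, Cxcl14 and Cxcl16, with 1 point per library. Pf4 spans the widest range and is lowest in MHC class II high cells, Cxcr4 is highest in Gpnmb cells, and Cxcl16 lies between -0.42 and 0.30.

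Most Pf4 UMIs outside the macrophage gate lay in cells of no gate, with 3143 UMIs in 411 CEP cells and 4146 in 473 Vehicle cells. Their levels were 483 and 593 CPM, and the Vehicle one was above that of the Vehicle macrophage gate. The endothelial gate was at 351 and 341 CPM, from 4 and 3 cells with a UMI. The NK gate was at 566 and 8.15 CPM, from 43 UMIs and 1 UMI. Neutrophils had 100.1 CPM in CEP and 43.5 in Vehicle (451 and 243 UMIs, log2 1.20, 0.97 to 1.43), and the highest 3 cells held 48.8% and 39.1% of these UMIs. Without the highest cell of each library the levels were 77.3 and 33.2 CPM, and the ratio was 1.22. The ratio was 2.10 with the gate minimum doubled, 0.75 with high doublet scores kept, 0.78 with per-cell CPM averaged and 0.90 in thinned cells. Beside it, the 7 macrophage markers summed to 1120 and 968 CPM in the neutrophil gate, of which Apoe made up 616 and 528. Ms4a7 was at 48.6 and 12.2 CPM (219 and 68 UMIs) and Mrc1 at 18.0 and 10.9, while Adgre1 was at 6.22 and 10.0 CPM. Their part in the Pf4 difference was not tested. T cells had 109.9 and 172 CPM (-0.65, -1.02 to -0.28), but 1 Vehicle cell held 114 of 177 UMIs, and without the highest cell of each library the ratio was 0.29 (-0.23 to 0.82). Epithelial cells had 67 UMIs in CEP, or 3.05 CPM, and 0 in Vehicle, where 3 UMIs would be 0.940 CPM. The 2 epithelial gates held 780 and 111 cells. Dendritic cells had 9.89 and 12.1 CPM from 9 and 12 UMIs.

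**Figure D4:**
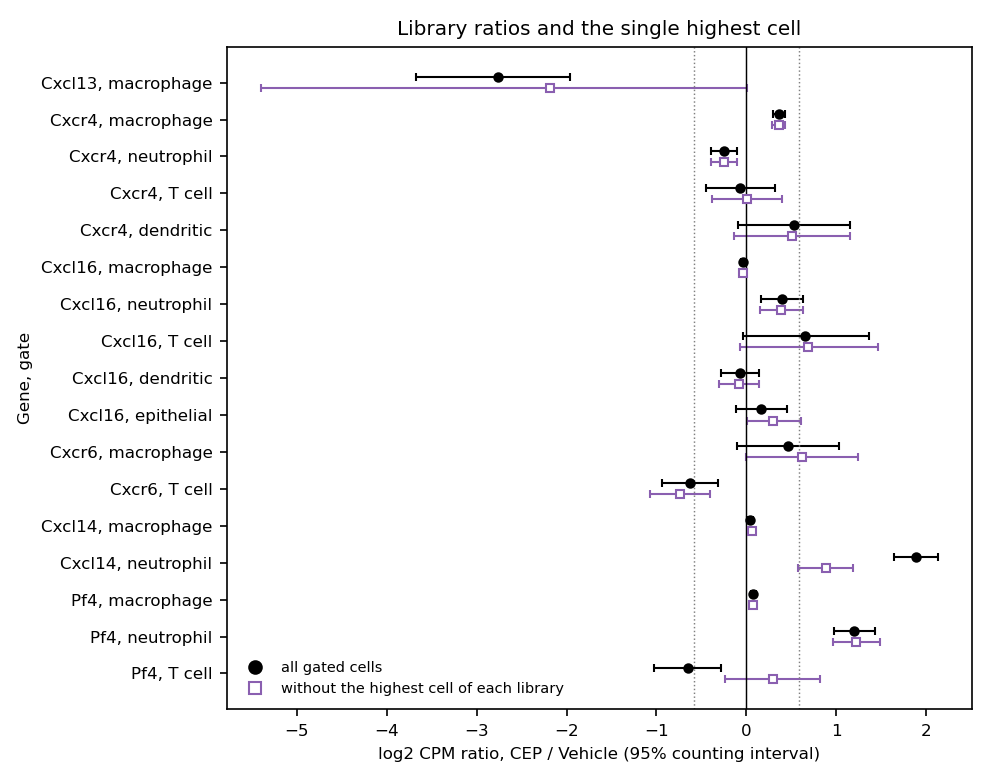
Log2 ratio of CPM, CEP over Vehicle, for each gene and gate with at least 50 UMIs and UMIs in both libraries, with 95% counting intervals; filled points use all gated cells, open squares leave out the highest cell of each library, and dotted lines mark 1.5-fold. Cxcr4 in macrophages keeps its place at 0.36, while Cxcl14 in neutrophils moves from 1.88 to 0.88 and Pf4 in T cells from -0.65 to 0.29.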

How the data were processed

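Droplet single-cell RNA libraries of CD45-selected tumour cells were analysed from the deposited raw UMI counts per gene and barcode. Counts were made with Cell Ranger 5.0.1 on mm10 per the submitters' processing notes, while the file headers name version 7.1.0, and the treatment of intronic reads is not stated in either. A barcode needed 200 genes or more and no more than 15% of its UMIs from mitochondrial genes, which left 9544 in CEP and 9932 in Vehicle. Scrublet's own threshold marked 1 barcode in each library, so the 8% with the highest doublet scores were removed instead (702 and 778). Scores came from scanpy 1.11.5, and other steps used numpy 2.4.6, scipy 1.17.1 and pandas 2.3.3 in Python 3.11.15, tested on simulated data. Levels are summed UMIs per 1000000. With 1 library per group, no test was run. Intervals (95%) are exact Poisson for levels, exact binomial (Clopper-Pearson) for shares and exact conditional binomial for ratios, and a count of 0 was given the limit of 3 UMIs. PCR duplicates are removed by UMIs, but cells of a library share its preparation. A gene counted as measured with at least 50 UMIs in both libraries together. Named genes were the 8 members, the highest and lowest gene of each of 7 lists, and the 5 genes most like a member. The members and lists were chosen with earlier results of these data known. Fibroblast, endothelial, B cell and NK gates were taken from cells outside the 5 gates with C1q under 3. Results were recomputed with 7 other settings, each changing 1 step, and 3 more were chosen after seeing the data. Gene positions are those of mm10. RefSeq promoters (GRCm38.p6) were found for 6 of 8 members.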

Additional observations from a re-analysis of the deposited data

How the results depend on the processing

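No paired analysis was possible because each group was 1 library. Of the alternative values for Cxcl13, Cxcl16 and Pf4 in macrophages, Cxcr4 in neutrophils and Cxcr6 in T cells, 38 moved by less than the counting interval, 6 by more, and 1 changed sign. Cxcl13 was at -5.07 (log2, CEP over Vehicle) in thinned cells. Cxcl16 in macrophages was at -0.065 with high doublet scores kept, 0.014 as a mean of per-cell CPM and -0.0038 in thinned cells. Pf4 in macrophages was at 0.040, 0.0072 and 0.0065 under these settings. Other ratios that changed sign were Cxcl14 in macrophages, -0.048 in thinned cells, and Pf4 in T cells, 1.34 with the gate minimum doubled and 0.29 without the highest cell of each library. Thinning turned Cxcl16 to -0.18 in T cells and 0.27 in dendritic cells, where the doubled gate gave 0.12, and keeping high doublet scores turned Cxcr6 in macrophages to -0.81. Cxcr4 in T cells, at -0.06, was above 0 under 3 settings, at 0.0089 to 0.25. The cause was not tested. Without cells of 10 or more collagen or keratin UMIs, the genes past 1.5-fold numbered 382 in place of 687 in macrophages and 419 in place of 1621 in neutrophils. The neutrophil number was 749 with the gate minimum doubled and 614 without cells in more than 1 gate. Counting error is the only error measured, and the spread between animals is unknown. Members with few UMIs, Cxcl13 and Cxcr5 above all, are limited by how few cells held them. Cxcl13 was at 0 UMIs in 4160 of 4162 CEP and 4562 of 4564 Vehicle macrophages. The part of sequencing depth in this was not tested.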

Other observations

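Macrophage-gate cells also held RNA of T cell and epithelial genes. The 6 T cell markers summed to 31.9 CPM in CEP and 21.1 in Vehicle, and the 6 epithelial markers to 59.7 and 11.1. Of the 6 follicular helper T genes, 5 were measured there and 3 were past 1.5-fold higher, beside 4.44% of all genes. Icos was the highest, at 5.15 and 2.74 CPM (log2 0.91, 0.60 to 1.22). Itgae, an integrin gene of resident memory T cells and of some dendritic cells, was at 3.93 and 1.24 CPM (1.67, 1.25 to 2.11). What these cells are was not tested.

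The cells that fell in no gate, 1956 in CEP and 1998 in Vehicle, carried members too. Cxcr6 was at 7.38 CPM in CEP and 17.4 in Vehicle (48 and 122 UMIs, log2 -1.24, -1.75 to -0.75). Beside it, the 6 T cell markers summed to 134 CPM in CEP and 199.95 in Vehicle in these cells, and their part in the Cxcr6 difference was not tested. Cxcr4 was at 141 and 115 CPM (0.30, 0.16 to 0.43).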
